A study of Arabidopsis thaliana with 6 samples.

Results

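The genes described here are 10 nuclear genes of photosynthesis, measured in Arabidopsis root tips. They were chosen by name and are 10 of the 33560 genes in the expression table. They comprise 5 light-harvesting genes of photosystem II (*LHCB1.1*, AT1G29920; *LHCB1.3*, AT1G29930; *LHCB2.1*, AT2G05100; *LHCB4.1*, AT5G01530; and *LHCB5*, AT4G10340), 1 light-harvesting gene of photosystem I (*LHCA1*, AT3G54890), 2 genes for the small subunit of Rubisco (*RBCS1A*, AT1G67090, and *RBCS3B*, AT5G38410), and the transcription factor genes *GLK1* (AT2G20570) and *GLK2* (AT5G44190). RNA was sequenced from tips of about 2 mm of 5-day-old seedlings in 2 groups, *bron-2* and the Columbia-0 wild type, with 3 biological replicates of each. *bron-2* carries a T-DNA in *BRONTOSAURUS* (*BRON*, AT1G75710), which encodes a transcription factor, and the experiment asked which transcripts differ when *BRON* is lost. It is 1 insertion line, so a second change in that line cannot be told apart from the loss of *BRON*. Seedlings of both genotypes grew untreated on medium with 1% sucrose under 16 h light and 8 h dark. In bulk tissue of this kind, fewer cells of a type and less RNA per cell cannot be told apart.

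Light-harvesting proteins bind chlorophyll and pass the absorbed energy to the 2 photosystems, and Rubisco, of which the RBCS genes encode the small subunit, fixes carbon dioxide. The light-harvesting and RBCS genes are in the nucleus, and their proteins are imported into plastids. *GLK1* and *GLK2* are GARP-family factors that switch on light-harvesting and chlorophyll genes, and in Arabidopsis roots *GLK2* is known as the main one. Roots are not usually green, but roots grown in light can form some chloroplasts, and this needs *GLK2* and *HY5*.

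Several of these genes have close copies, and this bears on how far a read can be given to 1 of them. *LHCB1.1* (chromosome 1, 10474656 to 10475969, minus strand) and *LHCB1.3* (chromosome 1, 10477885 to 10479114, plus strand) are divergent neighbours with 1915 bases between them in the TAIR10.1 annotation. Their coding sequences of 804 bases differed at 31 positions, an identity of 96.1%. The first 90 coding bases are shown because they let a reader see how small these differences are. Capitals mark each base that differs from *LHCB1.3*, or, in *RBCS3B*, from *RBCS1A*. *LHCB1.2* is the third copy of the cluster and is not among the 10 genes. The sequences come from RefSeq, TAIR10.1.
LHCB1.3: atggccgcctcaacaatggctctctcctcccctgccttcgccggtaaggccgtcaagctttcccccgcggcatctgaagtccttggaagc
LHCB1.1: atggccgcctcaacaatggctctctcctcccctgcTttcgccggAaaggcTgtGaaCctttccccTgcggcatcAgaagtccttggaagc
LHCB1.2: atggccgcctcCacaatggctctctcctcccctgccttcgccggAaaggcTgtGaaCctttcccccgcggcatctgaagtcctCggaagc
RBCS1A: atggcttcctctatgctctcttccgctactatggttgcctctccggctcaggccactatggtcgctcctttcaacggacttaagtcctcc
RBCS3B: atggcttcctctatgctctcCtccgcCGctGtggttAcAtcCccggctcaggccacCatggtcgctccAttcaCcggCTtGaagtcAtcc
*LHCB1.1* differed from *LHCB1.3* at 7 of these 90 bases and *LHCB1.2* at 6, whereas *RBCS3B* differed from *RBCS1A* at 14. A read of 100 bases will usually cross such a difference. Of the 100-base windows of each transcript, 4.07% in *LHCB1.3*, 4.44% in *LHCB1.1*, 7.43% in *LHCB2.1* and 12.1% in *RBCS3B* also occurred in a transcript of another gene. The other 6 genes shared none. How reads that match several genes were assigned is not given in the sources used here, so the values of *LHCB1.1* and *RBCS3B* in particular are uncertain.

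The promoters are shown for *LHCB1.3*, *LHCB1.1* and *LHCB4.1*, a pair of copies that stood far apart in level and a gene that moved with *LHCB1.3* among the libraries. Each line holds the 250 bases before the annotated start, read on the gene's own strand, and capitals mark whole matches to a motif. The motifs searched on both strands were the G-box CACGTG, the I-box GATAAG, a motif reported at GLK targets (CCAATC), and AAAAATCT and AACAATCT, which are reported for the clock protein CCA1 at *LHCB1.3*. None of these motifs contains another. The windows lie at chr1:10477635-10477884 (plus strand), chr1:10475970-10476219 (minus strand) and chr5:208616-208865 (plus strand) in TAIR10.1.
LHCB1.3 promoter: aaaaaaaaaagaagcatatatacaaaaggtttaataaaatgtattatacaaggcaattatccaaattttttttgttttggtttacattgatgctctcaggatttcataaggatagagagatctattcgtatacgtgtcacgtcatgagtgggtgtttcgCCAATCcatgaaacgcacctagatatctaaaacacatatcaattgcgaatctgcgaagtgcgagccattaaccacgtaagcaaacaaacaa
LHCB1.1 promoter: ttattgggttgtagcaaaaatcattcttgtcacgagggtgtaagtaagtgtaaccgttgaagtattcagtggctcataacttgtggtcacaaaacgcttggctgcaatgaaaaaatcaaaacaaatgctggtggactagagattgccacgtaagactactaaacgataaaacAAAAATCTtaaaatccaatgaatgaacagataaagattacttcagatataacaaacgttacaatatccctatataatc
LHCB4.1 promoter: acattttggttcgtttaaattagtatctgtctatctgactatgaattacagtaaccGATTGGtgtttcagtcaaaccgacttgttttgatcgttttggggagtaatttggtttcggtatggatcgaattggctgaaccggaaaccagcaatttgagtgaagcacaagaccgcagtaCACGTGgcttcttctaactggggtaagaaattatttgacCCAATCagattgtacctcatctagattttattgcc
The 250 bases before the start of *LHCB1.1* and of *LHCB1.3* were 43.9% identical when aligned, far below the identity of the coding sequences. CCAATC was present in 5 of the 10 genes (*LHCB1.3*, *LHCB2.1*, *LHCB4.1*, *LHCB5* and *LHCA1*) within 250 bases before to 50 after the start, against 12.4% of 27437 nuclear promoters of that length. The I-box was present in 4 of 10 (*LHCB2.1*, *LHCB4.1*, *LHCA1* and *GLK1*), against 14.6% of promoters. The G-box was present in 1, *LHCB4.1*, against 7.68%. AAAAATCT was present in 3 (*LHCB1.1*, *LHCB1.3* and *GLK2*), against 7.88%, and AACAATCT in 1 (*LHCB1.3*), against 2.24%. In *LHCB1.3* both CCA1 motifs touch or follow the start and are therefore not in capitals above. No listed motif was found for *RBCS1A* and *RBCS3B*. A match describes letters only.

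Expression was deposited as FPKM, which is scaled by transcript length and by library size, so that levels can be compared between genes. Genes that averaged 1 FPKM or more across the libraries, 17107 in number, were tested with limma on log2(FPKM + 1). A gene is called here at an unadjusted p under 0.05, the threshold that the study used with another test, and the Benjamini-Hochberg adjusted p is given beside it. The fold change is *bron-2* over wild type on the log2(FPKM + 1) scale, where changes of low genes come out too small. *BRON* itself had 1.25, 0.925 and 1.097 FPKM in *bron-2* and 17.9, 16.1 and 17.3 FPKM in wild type, 6.38% of the wild type mean. Its log2 fold change was -3.12 (SE 0.11, limma, adjusted p = 7.91e-05). The reads behind each value are not known from FPKM, but the steps between low values gave relative depths of 1.19 to 1.25 in *bron-2* and 0.964 to 1.104 in wild type. Shoot tissue was close to undetected: 9 of 12 shoot markers, among them the YABBY genes *YAB1*, *YAB3* and *YAB5* and the stomatal genes *SPCH*, *MUTE* and *FAMA*, were listed at 0 in all 6 libraries. The 12 summed to 0.352 to 1.02 FPKM in *bron-2* and 0.354 to 0.957 FPKM in wild type. The labels name root tips and no zone within them. The 11 markers listed for root meristem and root cap summed to 112.8 to 124.8 FPKM in *bron-2* and 113.4 to 142.3 FPKM in wild type. The largest parts of that sum were *BRN1*, *SCR*, *GL2* and *WER*, with means of 38.4, 25.5, 21.5 and 13.5 FPKM over the 6 libraries. *PLT1*, *PLT2*, *WOX5* and *FEZ* were near the floor, with means of 0.739, 1.01, 0.294 and 0.687 FPKM. Markers of differentiated root cells summed to far more, 3281 to 3880 FPKM in *bron-2* and 2436 to 3446 FPKM in wild type.

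The 10 genes did not change together in *bron-2*. Of the 6 that passed the filter, 1 was called, *RBCS1A*, which was lower, against 9.79% of all tested genes called in either direction, 5.76% called lower and 4.03% called higher. None of the 6 had an adjusted p under 0.05 (limma), as against 0.0818% of all tested genes. The *bron-2* and wild type libraries overlapped in all 10 genes, the 6 tested ones and those under the filter. Groups that did not overlap were found in 15.7% of all tested genes. With so few genes, having none is close to that share. The median log2 fold change of the 6 was -0.07, and that of all tested genes was -0.000996.

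The plot of the 10 genes by library gives their order. *LHCB1.3* and *LHCB5* were highest and overlapped each other, and *LHCB5* and *LHCB4.1* were set apart from the gene below them. *GLK2*, *LHCA1*, *RBCS1A*, *LHCB2.1* and *GLK1* followed in that order, each overlapping its neighbour over the 6 libraries. *GLK1* did not overlap *LHCB1.1*, and *LHCB1.1* and *RBCS3B*, at the bottom, overlapped.

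**Figure D1:**
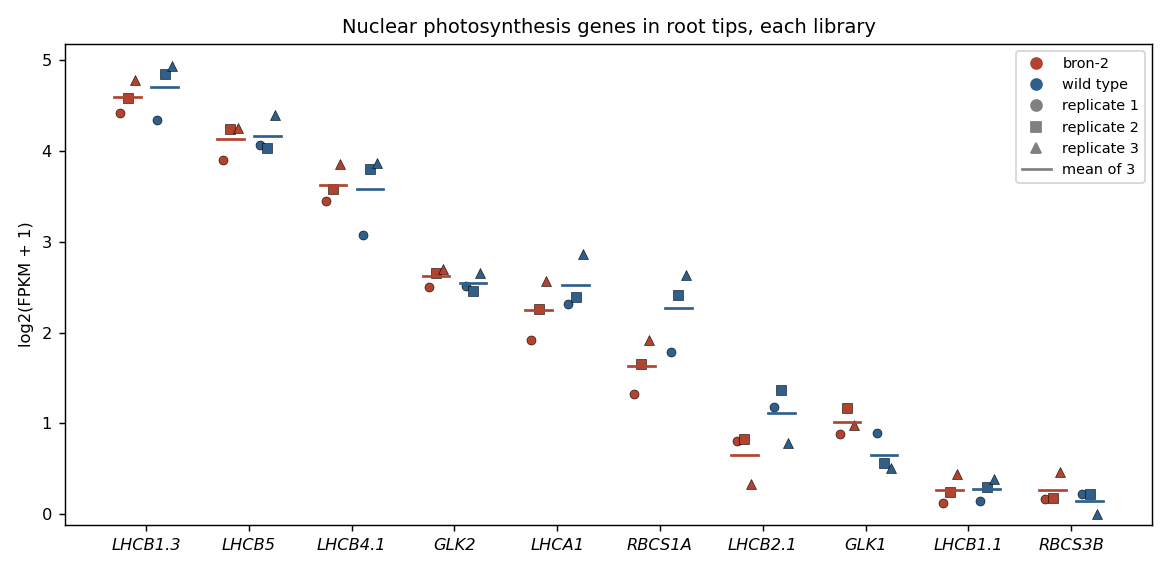
The vertical axis is log2(FPKM + 1) and the horizontal axis lists the 10 genes from the highest to the lowest mean. Each point is 1 library, with *bron-2* in red to the left of wild type in blue, the symbol gives the replicate number and the bar is the mean of 3. *LHCB1.3* lies between 19.3 and 29.6 FPKM and its copy *LHCB1.1* between 0.0892 and 0.358 FPKM. In *RBCS1A* the red mean sits below the blue mean, and the points of the 2 groups overlap.

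Among the photosystem II antenna genes, *LHCB1.3* was the strongest of the 10. It encodes a subunit of the LHCII trimer, the main antenna. It had 20.4, 23.1 and 26.5 FPKM in *bron-2* and 19.3, 27.8 and 29.6 FPKM in wild type. The groups overlapped, and the log2 fold change was -0.11 (SE 0.17, 95% interval -0.51 to 0.28, limma adjusted p = 0.869). The interval leaves room for a moderate change in either direction. Without wild type replicate 1, the lowest library, the log2 fold change was -0.30 (limma unadjusted p = 0.0463). Leaving out each of the other 5 libraries gave values between -0.21 and -0.0014, none of them called. Its transcript runs into that of AT1G29940 on the other strand, and the sources used here do not say whether strand was used in counting.

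*LHCB1.1*, with an almost identical coding sequence, had 0.0892, 0.186 and 0.358 FPKM in *bron-2* and 0.103, 0.231 and 0.310 FPKM in wild type. It stayed under the filter, and both genotypes covered the same range. *LHCB1.2*, the remaining copy of the cluster, averaged 0.978 ± 0.296 FPKM in *bron-2* and 1.69 ± 0.493 FPKM in wild type (SD, n = 3 each), and it was not called. Among the 3 copies, *LHCB1.3* was therefore the only one above 3 FPKM in any library.

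*LHCB2.1* (chromosome 2, 1822990 to 1824480, minus strand) encodes the other common type of LHCII subunit, which is phosphorylated when the antenna moves between photosystems. It had 0.747, 0.772 and 0.258 FPKM in *bron-2* and 1.27, 1.57 and 0.724 FPKM in wild type. The lowest wild type library lay just below the upper *bron-2* ones, so the groups overlapped, and the gene was under the filter. In a fit without the filter, its unadjusted p was 0.0553 (limma).

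*LHCB5* (chromosome 4, 6408007 to 6409849, plus strand) and *LHCB4.1* (chromosome 5, 208866 to 210548, plus strand) encode CP26 and CP29, the single antenna proteins that link LHCII to the core of photosystem II. *LHCB5* had 14.0, 17.98 and 18.04 FPKM in *bron-2* and 15.7, 15.3 and 20.1 FPKM in wild type, with a log2 fold change of -0.03 (SE 0.14, 95% interval -0.36 to 0.30). *LHCB4.1* had 9.96, 10.9 and 13.5 FPKM in *bron-2* and 7.42, 12.9 and 13.7 FPKM in wild type, with a log2 fold change of 0.05 (SE 0.22, 95% interval -0.46 to 0.56). In both genes the genotypes covered one range, and the sign of the estimate turned when single libraries were left out. The adjusted p was 0.968 for each (limma).

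*LHCA1* (chromosome 3, 20339504 to 20341176, minus strand) encodes an antenna protein of photosystem I. It had 2.78, 3.80 and 4.94 FPKM in *bron-2* and 3.99, 4.25 and 6.31 FPKM in wild type. The values overlapped, and the log2 fold change was -0.28 (SE 0.21, 95% interval -0.76 to 0.21, limma adjusted p = 0.712).

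*RBCS1A* (chromosome 1, 25048158 to 25049667, minus strand), the small subunit gene that leaves express most, was the only one of the 10 to be called. It had 1.499, 2.15 and 2.79 FPKM in *bron-2* and 2.44, 4.32 and 5.20 FPKM in wild type. The *bron-2* mean of 2.15 ± 0.647 FPKM was 53.8% of the wild type mean of 3.99 ± 1.41 FPKM (SD, n = 3 each). The highest *bron-2* library lay above the lowest wild type library. The log2 fold change was -0.64 (SE 0.25, 95% interval -1.22 to -0.07, limma unadjusted p = 0.0324, adjusted p = 0.462), and an exact two-sided permutation test gave p = 0.2, where the smallest value 3 against 3 can give is 0.1. The call was lost without *bron-2* replicate 1 or 2 (log2 fold change -0.49 and -0.65, limma unadjusted p 0.109 and 0.0674) and without wild type replicate 2 or 3 (log2 fold change -0.57 and -0.46, limma unadjusted p 0.0942 and 0.106), and it was kept without *bron-2* replicate 3 or wild type replicate 1.

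*RBCS3B* (chromosome 5, 15376988 to 15378642, minus strand) had 0.125, 0.130 and 0.377 FPKM in *bron-2* and 0.162, 0.165 and 0 FPKM in wild type. It is listed at 0 in wild type replicate 3. The other copies of its chromosome 5 cluster, *RBCS1B* and *RBCS2B*, were listed at 0 in all 6 libraries, so *RBCS1A* held nearly all of the family's signal in both genotypes.

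The factors of the pathway differed in level. *GLK2* (chromosome 5, 17798262 to 17800926, plus strand) had 4.66, 5.32 and 5.50 FPKM in *bron-2* and 4.72, 4.49 and 5.33 FPKM in wild type. Its log2 fold change was 0.08 (SE 0.11, the smallest of the 6 tested genes, 95% interval -0.19 to 0.34, limma adjusted p = 0.870). *GLK1* (chromosome 2, 8855302 to 8857758, plus strand) had 0.838, 1.25 and 0.974 FPKM in *bron-2* and 0.851, 0.476 and 0.417 FPKM in wild type. The highest wild type library lay just above the lowest *bron-2* library. *GLK1* was under the filter, and in a fit without the filter its unadjusted p was 0.0346 (limma adjusted p = 0.531), with a log2 difference of 0.36, while an exact two-sided permutation test gave p = 0.2.

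The wider family was then read across the other light-harvesting and small subunit genes. Of 17 such genes, 10 were tested, 2 were called lower and none was called higher, against 5.76% and 4.03% of all tested genes. *LHCB1.5*, another LHCII subunit gene, was the highest of the family, with 69.6, 80.7 and 67.0 FPKM in *bron-2* and 114.0, 131.8 and 132.0 FPKM in wild type. The groups lay well apart, with *bron-2* at 57.5% of the wild type mean and a log2 fold change of -0.79 (SE 0.10, limma unadjusted p = 6.17e-05, adjusted p = 0.0694). TAIR10.1 places a long noncoding RNA, AT2G08665, on the other strand across the whole *LHCB1.5* transcript, and without strand the reads of both cannot be told apart. A protein-coding gene on that strand, AT2G34410, overlaps *LHCB1.5* as well. *LHCB3*, which encodes the third type of LHCII subunit, had 8.94, 9.26 and 8.77 FPKM in *bron-2* and 14.4, 18.2 and 13.6 FPKM in wild type, with a log2 fold change of -0.71 (SE 0.12, limma unadjusted p = 0.000417, adjusted p = 0.176). Its transcript also overlaps a gene on the other strand, AT5G54280. Both calls held in all 14 alternatives run. The groups also did not overlap in *LHCA5*, with 1.25, 0.725 and 1.02 FPKM in *bron-2* and 1.45, 1.78 and 1.28 FPKM in wild type. It was not called. They did not overlap in *LHCB4.3* either, with 0.0890, 0.461 and 0.627 FPKM in *bron-2* and 1.04, 0.805 and 0.714 FPKM in wild type. It was under the filter. Both genes were near the floor, with means of 1.25 and 0.623 FPKM over the 6 libraries. Lower groups without overlap were found in 3 of the 10 tested family genes, against 8.67% of all tested genes. *LHCB6*, which encodes the antenna protein CP24, averaged 24.9 ± 2.55 FPKM in *bron-2* and 24.5 ± 2.02 FPKM in wild type (SD, n = 3 each). The 17 genes summed to 145.8 to 170.9 FPKM in *bron-2* and 196.8 to 239.5 FPKM in wild type, and without *LHCB1.5* to 76.2 to 90.2 FPKM in *bron-2* and 82.8 to 107.5 FPKM in wild type. The separation of the 2 sums therefore rested on *LHCB1.5*. The 10 genes chosen by name summed to 55.1 to 73.3 FPKM in *bron-2* and 56.0 to 81.6 FPKM in wild type.

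**Figure D2:**
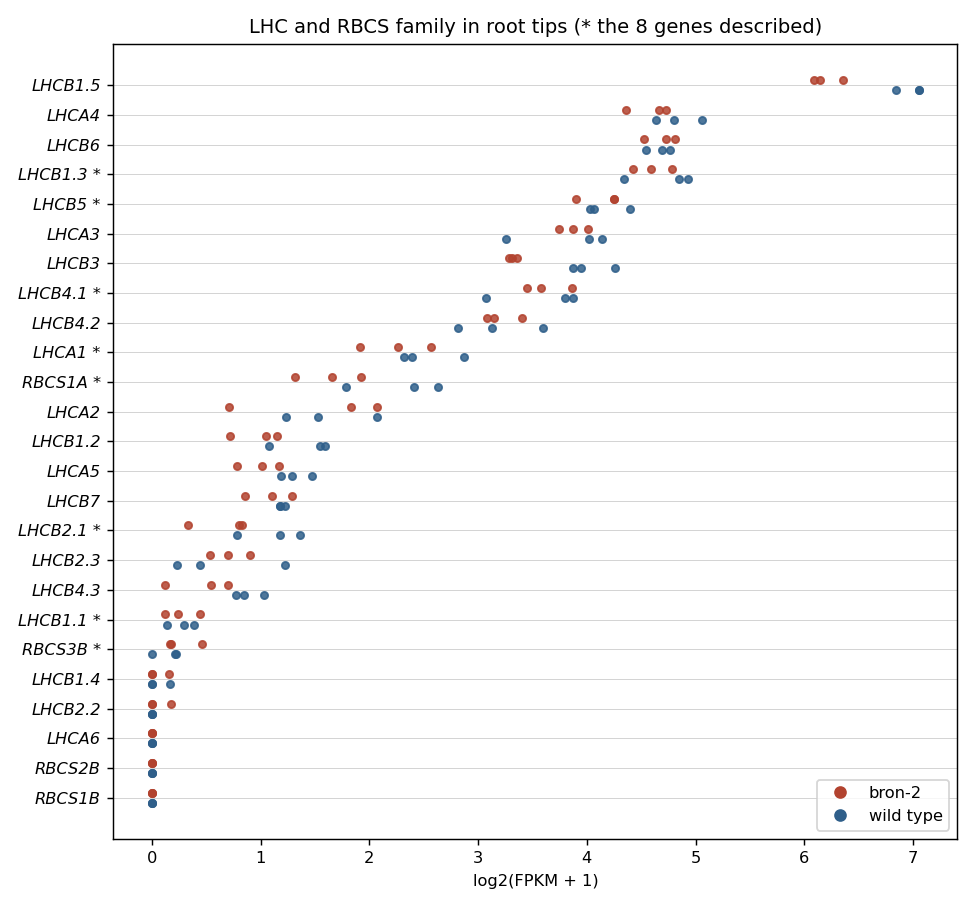
The horizontal axis is log2(FPKM + 1) and each row is 1 of the 25 light-harvesting and small subunit genes, sorted by mean, with the 8 of the 10 genes that belong to them starred. Points are single libraries, *bron-2* in red above wild type in blue. *LHCB1.5*, *LHCB3*, *LHCA5* and *LHCB4.3* show red points clear of the blue ones, whereas in the starred genes the colours overlap.

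Across the rest of the photosynthetic pathway, 119 genes were listed in 9 groups and 91 were tested. Of these, 8 were called lower, a share of 8.79% against 5.76% of all tested genes, and none was called higher, against 4.03%. In either direction the share was 8.79% against 9.79%, and none had an adjusted p under 0.05 (limma). The median log2 fold change was -0.07. The groups did not overlap in 10 of the 91, lower, and in 2, higher, against 8.67% and 7.06% of all tested genes.

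Photosystem II subunits held 4 of the 8 calls, all lower, among 13 tested, a share of 30.8% against 5.76% of all tested genes. The list as a whole was less one-sided. Its log2 fold changes ran from -0.91 to 0.44, with 9 of 13 below 0. Their median was -0.06, against -0.07 for the 91 tested pathway genes. *PSBS*, which sets heat dissipation of excess light, had 19.8, 17.01 and 13.5 FPKM in *bron-2* and 42.3, 33.0 and 23.3 FPKM in wild type (log2 fold change -0.91, SE 0.22, limma unadjusted p = 0.00353, adjusted p = 0.289). *PSB28*, an assembly factor of photosystem II, had 5.27, 3.79 and 3.65 FPKM in *bron-2* and 10.5, 6.20 and 6.33 FPKM in wild type (log2 fold change -0.71, SE 0.21, limma unadjusted p = 0.0101, adjusted p = 0.362). In both genes no *bron-2* library reached any wild type library, and the calls held in all 14 alternatives. *PSBR*, a small subunit near the oxygen-evolving complex, and *PSBO1*, which stabilises its manganese cluster, fell by 0.35 and 0.28 on the log2 scale (limma unadjusted p = 0.0180 and 0.0257, adjusted p = 0.402 and 0.441), with groups that did not overlap. Lower groups without overlap were thus found in 4 of the 13 subunits, against 8.67% of all tested genes. *PSBR* lost the call without *bron-2* replicate 1 or 2 or wild type replicate 2 (limma unadjusted p 0.0633 to 0.0694), and without both libraries numbered 1 (0.0688). *PSBO1* lost it without *bron-2* replicate 1 or wild type replicate 2 or 3 (limma unadjusted p 0.0704 to 0.0886). The *PSBR* transcript overlaps AT1G79050 on the other strand. *PSBX*, the highest subunit, averaged 52.6 ± 8.80 FPKM in *bron-2* and 49.8 ± 4.997 FPKM in wild type (SD, n = 3 each).

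None of the 12 photosystem I subunits was called at an unadjusted p under 0.05 (limma), and their median log2 fold change was 0.05. *PSAK*, the highest of them, averaged 40.3 ± 5.28 FPKM in *bron-2* and 42.0 ± 9.95 FPKM in wild type (SD, n = 3 each). Among 9 electron transport and ATP synthase genes 1 was called lower, a share of 11.1% against 5.76% of all tested genes. This was *FD1*, a ferredoxin, with 145, 137 and 132 FPKM in *bron-2* and 206, 178 and 142 FPKM in wild type (log2 fold change -0.33, limma unadjusted p = 0.0369, adjusted p = 0.476). The groups overlapped, and the call was lost in 7 of 14 alternatives, including each single library left out except wild type replicate 3 (limma unadjusted p 0.0515 to 0.104). *FD1* overlaps a gene on the same strand, AT1G10950.

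Among 12 tested chlorophyll synthesis genes, 1 was called lower, a share of 8.33% against 5.76% of all tested genes. It was *CHLH*, the large subunit of magnesium chelatase. It had 8.99, 9.40 and 8.13 FPKM in *bron-2* and 16.5, 14.4 and 9.58 FPKM in wild type (log2 fold change -0.53, limma unadjusted p = 0.0202, adjusted p = 0.413). The call was lost without *bron-2* replicate 3 and without wild type replicate 1 or 2 (limma unadjusted p 0.0617 to 0.0692). It was also lost without both libraries numbered 1 (limma unadjusted p = 0.0933). *HEMA1*, which makes the first committed precursor and was the highest of the list, averaged 45.8 ± 1.65 FPKM in *bron-2* and 40.3 ± 3.02 FPKM in wild type (SD, n = 3 each). Its groups did not overlap, with *bron-2* higher, but it was not called.

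Tested were 10 of 15 light and greening regulators, 7 of 14 Calvin cycle genes, 15 plastid import and division genes and 3 of 9 plastid-encoded genes. None of these was called at an unadjusted p under 0.05 (limma). Under the filter, *FBA2*, *psaA* and *rbcL* had lower groups without overlap, at means of 0.353, 0.268 and 0.684 FPKM over the 6 libraries. Such groups made up 8.67% of all tested genes. *petB*, also under the filter, averaged 0.714 FPKM in *bron-2* and 0.219 FPKM in wild type, and its groups overlapped. The highest regulator was *BBX21*, a B-box factor of light signalling, with 165.6 ± 2.84 FPKM in *bron-2* and 147.9 ± 15.2 FPKM in wild type (SD, n = 3 each, as for the next genes). The groups of *BBX21* did not overlap, with *bron-2* higher. The highest Calvin cycle gene was *TKL1*, a transketolase, with 186.1 ± 5.56 FPKM in *bron-2* and 190.9 ± 8.74 FPKM in wild type. Import and division were led by *CPN60A1*, a plastid chaperonin, with 56.5 ± 5.54 FPKM in *bron-2* and 61.8 ± 5.39 FPKM in wild type, and the plastid genes by *atpB*, the ATP synthase beta subunit, with 59.1 ± 2.66 FPKM in *bron-2* and 62.2 ± 2.75 FPKM in wild type. Among the import and division genes, 13 of 15 had a point estimate below 0, with a median log2 fold change of -0.09. This was so for 59 of the 91 tested pathway genes, for 5 of 12 photosystem I subunits and for 50.3% of all tested genes. The 15 genes were measured in the same 6 libraries, so their signs are not independent.

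**Figure D3:**
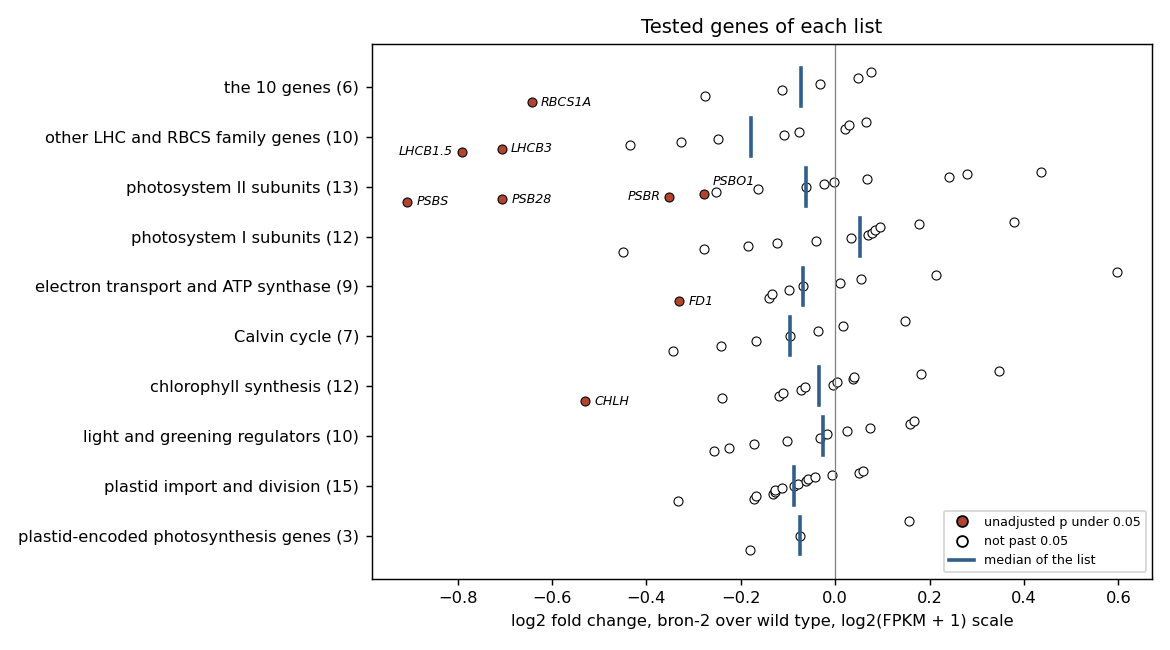
Each point is 1 tested gene, placed on the horizontal axis by its log2 fold change, *bron-2* over wild type on the log2(FPKM + 1) scale, with 1 row per list and the number tested in brackets. Filled points have an unadjusted p under 0.05 and the blue bar is the list's median. All 9 filled points lie left of 0, and 4 of them are photosystem II subunits.

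Libraries of the same genotype also differed from each other in these genes, and replicate 1 was often the lowest. This pattern was chosen after its values were seen. In 4 of the 6 tested genes (*LHCB1.3*, *LHCB4.1*, *LHCA1* and *RBCS1A*), and in *LHCB1.1* under the filter, replicate 1 was the lowest library in both genotypes. This held for 19.2% of all tested genes. None of the 6 was lowest in replicate 2 or in replicate 3 of both genotypes, against 6.66% and 16.2% of all tested genes. With these genes included, replicate 1 was lowest in both genotypes for 25 of the 40 tested light-harvesting, small subunit and photosystem genes, which is 62.5%. The 25 include the 4 tested genes named above and 4 of the 10 other family genes. They also include 9 of 13 photosystem II and 8 of 12 photosystem I subunits.

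As deviations from the genotype mean on the log2(FPKM + 1) scale, the 5 tested light-harvesting and small subunit genes averaged -0.25, 0.02 and 0.23 in *bron-2* replicates 1, 2 and 3 and -0.33, 0.05 and 0.29 in wild type replicates 1, 2 and 3. The 25 photosystem genes averaged -0.16, 0.01 and 0.16 in *bron-2* and -0.22, 0.04 and 0.17 in wild type. The markers of differentiated root cells did not move as one. *CASP1* to *CASP5*, which build the Casparian strip of the differentiating endodermis, averaged -0.23, 0.01 and 0.22 in *bron-2* and -0.40, 0.05 and 0.35 in wild type, and all 5 were lowest in replicate 1 of both genotypes. Of the root hair genes of the same marker list, *EXPA7*, *EXPA18*, *COBL9* and *RSL4* were lowest in replicate 3 of both genotypes. In wild type *EXPA7* was almost tied, at 427.45 FPKM in replicate 1 and 427.03 FPKM in replicate 3. Pearson r of these genes with the mean profile of the 5 genes was -0.52, -0.65, -0.86 and -0.69. *RHD6*, another root hair gene of the list, did not share this. It was highest in replicate 3 of both genotypes, at 22.1 FPKM in *bron-2* and 28.7 FPKM in wild type, and its r with that mean profile was 0.27. For *CASP1* to *CASP5* that r was 0.36 to 0.56. The 8 tested meristem and root cap markers averaged -0.09, 0.06 and 0.03 in *bron-2* and 0.10, -0.00 and -0.10 in wild type. The 13 differentiated root markers together summed to 3281 to 3880 FPKM in *bron-2* and 2436 to 3446 FPKM in wild type. Between genotypes, 2 of the 12 tested differentiated markers were called higher, 16.7% against 4.03% of all tested genes, and none lower. They were *CASP2* and *CASP5* (log2 fold change 0.44 and 0.55, limma unadjusted p = 0.0486 and 0.0452, adjusted p = 0.508 and 0.498). Of the 8 tested meristem and root cap markers, 2 were called lower, 25% against 5.76%, and none higher. They were *PLT2*, which averaged 1.01 FPKM and only just passed the filter, and *WER* (log2 fold change -0.40 and -0.50, limma unadjusted p = 0.0336 and 0.00902, adjusted p = 0.465 and 0.341). The median log2 fold change was 0.05 for the differentiated markers and -0.08 for the meristem and root cap markers. The part of tissue composition in the levels of the 10 genes was not tested.

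**Figure D4:**
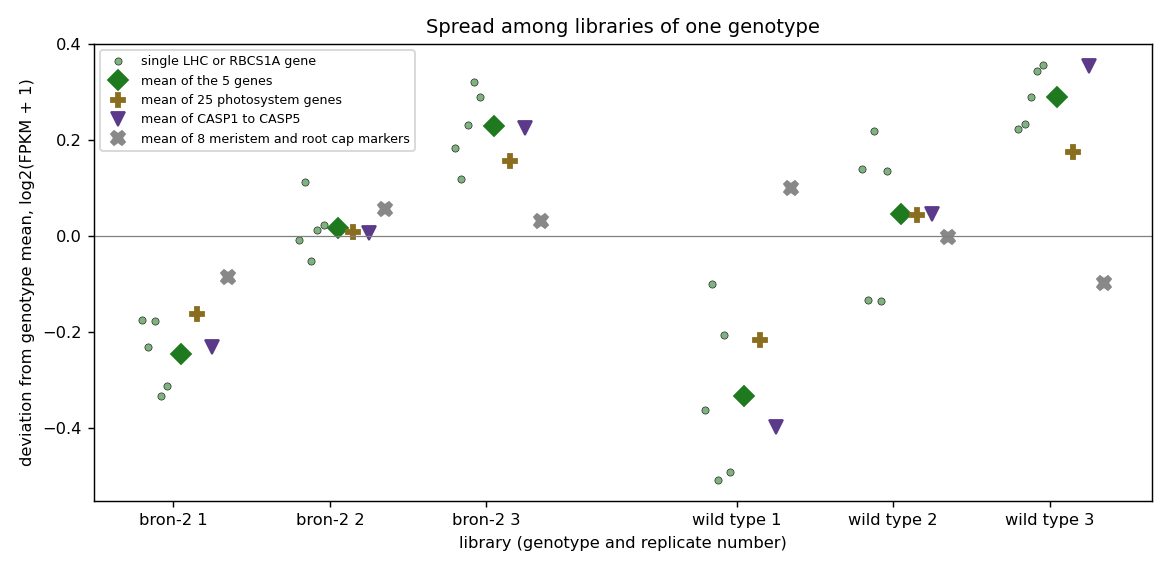
The vertical axis is the deviation of a library from its genotype mean in log2(FPKM + 1), and the horizontal axis lists the 3 *bron-2* libraries and then the 3 wild type libraries. Small circles are *LHCB1.3*, *LHCB5*, *LHCB4.1*, *LHCA1* and *RBCS1A*, and the larger symbols are means of gene lists. The means of the 5 genes, of 25 photosystem genes and of *CASP1* to *CASP5* all lie below 0 in replicate 1 and above 0 in replicate 3 of both genotypes, and the meristem and root cap mean lies the other way in wild type.

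The genes with the profile most like the mean of these 5 genes over the 6 libraries were AT3G27520 (Pearson r = 0.997), AT4G39675, AT4G30450, *MLP43*, AT4G26620, *CB5LP*, AT1G14590, AT3G01260, AT2G47610 and AT1G16430 (r = 0.983). *MLP43* encodes a protein of the major latex family and *CB5LP* a cytochrome b5-like protein. The 6 points share libraries and their sampling, and 78 of 17101 genes had an r above 0.95. Median r was 0.75 for photosystem I subunits, 0.61 for plastid import and division genes, 0.59 for photosystem II subunits, 0.56 for Calvin cycle genes and 0.54 for the other light-harvesting and small subunit genes. It was 0.40 for the 3 tested plastid-encoded genes, 0.35 for chlorophyll synthesis, 0.21 for electron transport and ATP synthase and 0.098 for light and greening regulators, against 0.089 for all tested genes. Of the other genes called lower, *PSBO1* had an r of 0.74, *PSBR* of 0.61, *LHCB1.5* of 0.49 and *LHCB3* of 0.36, while r was -0.13 for *PSBS*, -0.16 for *PSB28*, -0.16 for *CHLH* and -0.28 for *FD1*. In wild type each of the last 4 was highest in replicate 1. For *GLK1* the most like genes were *EXO70H8*, a subunit gene of the exocyst (r = 0.992), AT2G40120 and AT1G76880. For *GLK2* they were *CKS1*, a cyclin-dependent kinase subunit (r = 0.994), AT1G08670 and *PEX19-1*, a peroxisome import factor, with 42 genes above 0.95 for *GLK1* and 76 for *GLK2*.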

How the data were processed

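Total RNA of root tips was sequenced with 100 bp single-end reads in 6 libraries. The authors mapped the reads to TAIR10 with Cufflinks and deposited FPKM, normalized for transcript length and library size, 1 column per library; version, annotation, strand and the treatment of shared reads are not given in the sources used here. Columns labelled N113 were read as *bron-2* and Col as wild type. All 6 columns differed and were used unscaled.

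Of 33560 genes, 17107 averaged 1 FPKM or more and entered limma 3.58.1 (R 4.3.3) as log2(FPKM + 1) (trended eBayes, two-sided, Benjamini-Hochberg over all tested genes), since PoissonSeq, the study's test, needs counts. Exact permutation tests used scipy 1.17.1 in Python 3.11.15. Sequences and coordinates came from RefSeq TAIR10.1. The deposited table carries no coordinates, and no match was found there for the 9 plastid genes.

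The 10 genes and all lists were chosen with earlier results of these data known. Besides the 10 genes and *BRON*, the genes named are those of each pathway list with an unadjusted p under 0.05 (at most 4), its highest gene and the genes of most similar profile. *LHCB1.2*, *LHCB4.3*, *LHCB6*, *LHCA5*, *FBA2*, *psaA*, *rbcL*, *petB* and the markers were named after their values were seen. Alternatives were dropping the filter or raising it to 5 FPKM, a pseudocount of 0.1, median log ratio scaling, quantile normalization, no variance trend, the replicate number as a block and each library left out. Leaving out both libraries numbered 1 was chosen after seeing the data.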

Additional observations from a re-analysis of the deposited data

How the results depend on the processing

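The count of the 10 genes called lower in *bron-2* was 1, and it was 0 with a minimum mean of 5 FPKM, which leaves *RBCS1A* out, and 0 to 2 when 1 library was left out. The count called higher was 0, and 1 without the filter, which was *GLK1*. The count of pathway list genes called lower was 8. It was 14 without the filter, which tests more genes, 13 with the replicate block, and 5 to 11 when 1 library was left out. The count called higher was 0, and it was 1 without the filter, 1 with quantile normalization, 4 with the replicate block, 1 without both libraries numbered 1, and 0 to 6 when 1 library was left out. The 6 came without wild type replicate 3. The count with an adjusted p under 0.05 was 0, and 0 to 1 when 1 library was left out, the 1 without wild type replicate 1. The log2 fold change of *LHCB4.1* turned to -0.067 without *bron-2* replicate 3, -0.21 without wild type replicate 1 and -0.12 without both libraries numbered 1. That of *LHCB5* turned to 0.084 without *bron-2* replicate 1, 0.085 without wild type replicate 3 and 0.034 without both libraries numbered 1, with a range of -0.099 to 0.085 when 1 library was left out. None of these values of *LHCB4.1* and *LHCB5* passed an unadjusted p of 0.05 (limma), and the cause was not tested. Without both libraries numbered 1, *RBCS1A* kept its call, with a log2 fold change of -0.73 (limma unadjusted p = 0.00526).

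The replicate numbers were not used to pair libraries. Libraries of the same number correlated with r = 0.12, -0.01 and 0.19 in their deviations from the genotype means, and *bron-2* replicate 2 correlated best with wild type replicate 3. With the number as a block, 2253 genes were called, against 1674 without it, and *RBCS1A* had an unadjusted p of 0.00287 (limma). Among all tested genes 985 were called lower and 689 higher, against 913 and 813 with quantile normalization. Leaving out 1 library gave 1053 to 2289 calls in all. Neither scaling moved the median of all genes by more than 0.01 on the log2 scale.

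With 3 libraries a genotype and no read counts, the genes under 1 FPKM are the least certain, and no counting interval can be given for them.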
